A study of Mus musculus with 2 samples.

Results

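The erythroid and megakaryocyte regulators described here are 10 listed genes of the 31053 in the deposited matrix, namely Gata1, Gata2, Klf1, Zfpm1, Tal1, Lyl1, Gfi1b, Nfe2, Epor and Car1. The list was given by gene name, with no threshold on a measured value. Epor encodes a receptor and Car1 an enzyme, and the other members encode transcription factors or their partners. The cells were LSK cells (lineage-negative, Sca-1-positive, c-Kit-positive bone marrow cells, the fraction that holds stem cells and the earliest progenitors) of C57BL/6JRj mice. They were sorted from 4 old mice aged 22 to 28 months and 4 young mice aged 3 to 5 months, with the mice of each age combined in 1 library, and profiled by CITE-Seq, which counts transcripts and antibody tags by unique molecular identifiers (UMIs). No transgene, deletion or treatment is named for either group. Each barcode ends in the suffix 1 or 2 for its library. No label or method ties a suffix to an age, so the suffixes are given as the values of 2 unnamed libraries and no ages are compared. With 1 library per age there is no replicate of either age, and no test across samples was possible.

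In textbook haematopoiesis, the zinc finger factor GATA2 is present in stem and early progenitor cells and is replaced by GATA1 as cells enter the erythroid lineage. GATA1 also acts in megakaryocytes and mast cells. FOG1, encoded by Zfpm1, is the cofactor that GATA1 binds, and TAL1 and LYL1 are related basic helix-loop-helix factors that bind DNA beside GATA factors in a shared complex. GFI1B is a transcriptional repressor that the erythroid and megakaryocyte lineages need, NF-E2 p45 (Nfe2) is needed for platelet production, KLF1 drives globin and red cell genes, the erythropoietin receptor (Epor) carries the signal for red cell survival, and carbonic anhydrase 1 (Car1) marks committed erythroid progenitors.

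The cell filter asked for more than 1500 genes and for mitochondrial transcripts below 10% of UMIs, and 4068 of 4688 cells passed it, of which 1524 carried suffix 1 and 2544 suffix 2. They held 71367333 UMIs, with the 10th and 90th percentiles of depth at 9907 and 29563 UMIs per cell, and no barcode sequence occurred in both libraries. Tag values were present for 3986 kept cells. Within each suffix, the CD150 tag was split at its 75th and the CD48 tag at its 25th percentile, which gave 4 gates. The thresholds lay at 40 CD150 tags and 224 CD48 tags for suffix 1 and at 407 and 42 tags for suffix 2, so a gate holds cells of the same rank in both libraries, not of the same tag count. The CD150-high CD48-low gate, the SLAM phenotype of stem cells, held 555 cells (172 of suffix 1 and 383 of suffix 2). CD150-low CD48-low held 454 cells, CD150-high CD48-high 450 and CD150-low CD48-high 2527. Levels are UMIs of a gene per 1000000 UMIs of the same cells (CPM), with 95% exact Poisson intervals, and ratios carry exact conditional binomial intervals. All intervals cover counting error only, since cells of 1 library are not replicates.

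The gates were checked against marker genes. Of 10 stem cell genes, 8 had their highest level in the CD150-high CD48-low gate, among them Procr at 206 CPM against 50.3 in CD150-low CD48-high cells and Slamf1, which encodes CD150, at 50.0 against 1.75. The exceptions were Hlf and Ly6a, which were highest in CD150-low CD48-low cells. The myeloid gene Mpo stood at 1.46 CPM in the CD150-high CD48-low gate against 242 in CD150-low CD48-high cells, the lymphoid-primed gene Dntt at 1.46 against 321, and Cd48 itself at 1.33 against 121. Median depth was 13334 UMIs per cell in CD150-high CD48-low, 11556.5 in CD150-low CD48-low, 16660 in CD150-high CD48-high and 16343 in CD150-low CD48-high cells. Because of these depths, shares of stem cell gate and Dntt cells were compared after each cell had been thinned to 9000 UMIs, which left out 243 of the 4068 kept cells. Other shares are unthinned unless a thinned value is named. Doublets called by scrublet (36 cells, 0.885%) were kept, and 21 of them lay in the CD150-high CD48-high gate.

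Promoter sequence is shown for Gata1 and for the 4 members that were later found at 2-fold or more in Gata1-positive cells of both libraries, so that the letters can be read beside their levels. Of the 10 members, 8 were matched in the table of RefSeq promoters (GRCm38.p6) used here, all but Car1 and Nfe2, with 10 start sites in all because Gata2 and Tal1 have several. Each line gives the 250 bases before the start site, 5′ to 3′ on the strand of the gene, with a GATA-type word (AGATAA or TGATAA on either strand) in capitals.
Klf1, chr8:84901732-84901981, plus strand: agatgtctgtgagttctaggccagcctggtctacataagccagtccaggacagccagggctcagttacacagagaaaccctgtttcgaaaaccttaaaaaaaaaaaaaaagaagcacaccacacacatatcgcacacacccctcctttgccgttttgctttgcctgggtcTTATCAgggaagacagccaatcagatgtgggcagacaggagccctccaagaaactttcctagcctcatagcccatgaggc
Epor, chr9:21963577-21963826, minus strand: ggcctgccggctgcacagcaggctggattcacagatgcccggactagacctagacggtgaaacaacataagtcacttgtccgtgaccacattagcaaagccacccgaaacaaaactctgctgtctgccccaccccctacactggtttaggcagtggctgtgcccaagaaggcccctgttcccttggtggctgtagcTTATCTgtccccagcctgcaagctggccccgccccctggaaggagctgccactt
Gfi1b, chr2:28621983-28622232, minus strand: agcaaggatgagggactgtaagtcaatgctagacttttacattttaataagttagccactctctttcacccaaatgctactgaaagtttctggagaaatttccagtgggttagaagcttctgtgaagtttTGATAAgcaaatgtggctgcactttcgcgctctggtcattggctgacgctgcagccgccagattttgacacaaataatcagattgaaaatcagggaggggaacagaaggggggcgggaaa
Zfpm1, chr8:122281891-122282140, plus strand: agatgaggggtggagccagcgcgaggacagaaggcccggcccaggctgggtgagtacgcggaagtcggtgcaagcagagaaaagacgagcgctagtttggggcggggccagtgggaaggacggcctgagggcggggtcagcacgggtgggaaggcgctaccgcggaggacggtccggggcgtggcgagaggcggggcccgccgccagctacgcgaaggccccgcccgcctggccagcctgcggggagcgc
Gata1, chrX:7967911-7968160, minus strand: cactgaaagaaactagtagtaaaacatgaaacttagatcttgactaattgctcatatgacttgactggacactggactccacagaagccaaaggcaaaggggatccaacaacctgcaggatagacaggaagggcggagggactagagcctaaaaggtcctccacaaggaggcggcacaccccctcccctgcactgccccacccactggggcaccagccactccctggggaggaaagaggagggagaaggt
Klf1 held TGATAA on the opposite strand, beginning 80 bases before its start, Epor held AGATAA on the opposite strand 54 bases before, and Gfi1b held TGATAA on the strand shown 120 bases before. Tal1 held AGATAA on the opposite strand 205 bases before its upstream start. No such word lay in the windows of Zfpm1, Gata1, Gata2 or Lyl1, which says only that these letters are absent from these windows. Over windows from 250 bases before to 50 after the start, 4 of the members' 10 windows held the word, against 18.6% of 32851 promoter windows. Per gene, 4 of 8 members held it in at least 1 window, against 21.0% of 27025 genes. The E-box word CANNTG, the site class of TAL1 and LYL1, was found in 72.3% of all promoters, CCACACCC, a KLF-type word, in 3.56%, and CCGCCC in 35.7%. A match of letters is a description and not evidence of binding.

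Gata2 (chr6:88193891-88207032, plus strand, in GRCm38, as for the spans of the other genes) was the member with the widest spread between gates among those detected in most cells. Over both libraries its level was 196 CPM in CD150-high CD48-low cells (186 to 206), 161 in CD150-high CD48-high, 121 in CD150-low CD48-low and 63.4 in CD150-low CD48-high cells. In suffix 1 the same gates stood at 134, 124, 81.1 and 42.3 CPM, and in suffix 2 at 222, 200, 157 and 75.5 CPM. The order of the gates was the same in both libraries, and suffix 2 was higher than suffix 1 in each gate. The CD150-high CD48-low level was 3.08 times that of CD150-low CD48-high cells (2.89 to 3.28), with 3.17 in suffix 1 and 2.94 in suffix 2. CD150-high cells with high CD48 stood at 0.822 times the CD150-high CD48-low level, at 0.921 in suffix 1 (0.800 to 1.06) and 0.901 in suffix 2. The pooled 0.822 lies below both values and mixes the libraries in unlike parts. Suffix 2, the library with more Gata2, held 5266847 of 7519136 UMIs in CD150-high CD48-low and 4445765 of 9100063 in CD150-high CD48-high cells.

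Zfpm1 (chr8:122282141-122337251, plus strand), which encodes the GATA1 cofactor FOG1, followed the same order of gates at the thresholds used. Among cells with over 2500 genes and under 5% mitochondrial UMIs its ratio of CD150-high CD48-high to CD150-high CD48-low cells turned from 0.861 to 1.23 (0.935 to 1.63). The gene model Gm20388 overlaps it on the same strand and had 0 UMIs in kept cells. Its level was 126 CPM in CD150-high CD48-low, 109 in CD150-high CD48-high, 85.8 in CD150-low CD48-low and 55.5 in CD150-low CD48-high cells. In suffix 1 these were 107, 96.9, 65.7 and 45.5 CPM and in suffix 2 they were 135, 121, 104 and 61.2 CPM. As for Gata2, the 0.861 over both libraries mixes them in unlike parts. The ratio of CD150-high CD48-low to CD150-low CD48-high cells was 2.28 (2.11 to 2.45), with 2.35 and 2.20 in the suffixes. Gfi1b (chr2:28609450-28621982, minus strand), the repressor, stood at 46.9 CPM in CD150-high CD48-high (42.6 to 51.6), 40.2 in CD150-high CD48-low (35.8 to 45.0), 34.2 in CD150-low CD48-low and 17.3 in CD150-low CD48-high cells. The order of the CD150-high gates depended on the threshold, with a ratio of CD48-high to CD48-low of 1.17 as gated, 0.997 with percentiles over both suffixes and 0.708 with both tags at the median. Its CD150-high CD48-high level was 2.71 times that of CD150-low CD48-high cells (2.40 to 3.05), and 2.33 and 3.03 within the suffixes. The libraries differed most for Gfi1b in CD150-low CD48-low cells, at 19.8 CPM in suffix 1 and 46.9 in suffix 2. The pooled order of the CD48-low gates did not hold in suffix 2. There Gata1-negative cells stood at 47.2 CPM in CD150-low CD48-low and 43.0 in CD150-high CD48-low.

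The bHLH factors and Nfe2 varied less. Tal1 (chr4:115056426-115071755, plus strand) stood at 69.0 CPM in CD150-high CD48-low, 60.5 in CD150-low CD48-low, 71.2 in CD150-high CD48-high and 45.0 in CD150-low CD48-high cells. The neighbours in this order, 71.2 (65.8 to 76.9) and 69.0 (63.2 to 75.2), overlapped in their intervals, and their ratio was 0.835 in suffix 1 and 1.18 in suffix 2. Its ratio between CD150-high CD48-low and CD150-low CD48-high cells was 1.53, with 1.99 in suffix 1 and 1.35 in suffix 2. Nfe2 (chr15:103248212-103258403, minus strand) was lowest in CD150-low CD48-high cells at 111 CPM and lay between 135 and 151 CPM in the others. Lyl1 (chr8:84701457-84704715, plus strand), the paralogue of Tal1, was the flattest member, at 186, 193, 172 and 168 CPM in the 4 gates, with a CD150-high CD48-low level 1.11 times that of CD150-low CD48-high cells. Lyl1 overlaps the gene Nfix on the opposite strand in the annotation.

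**Figure D1:**
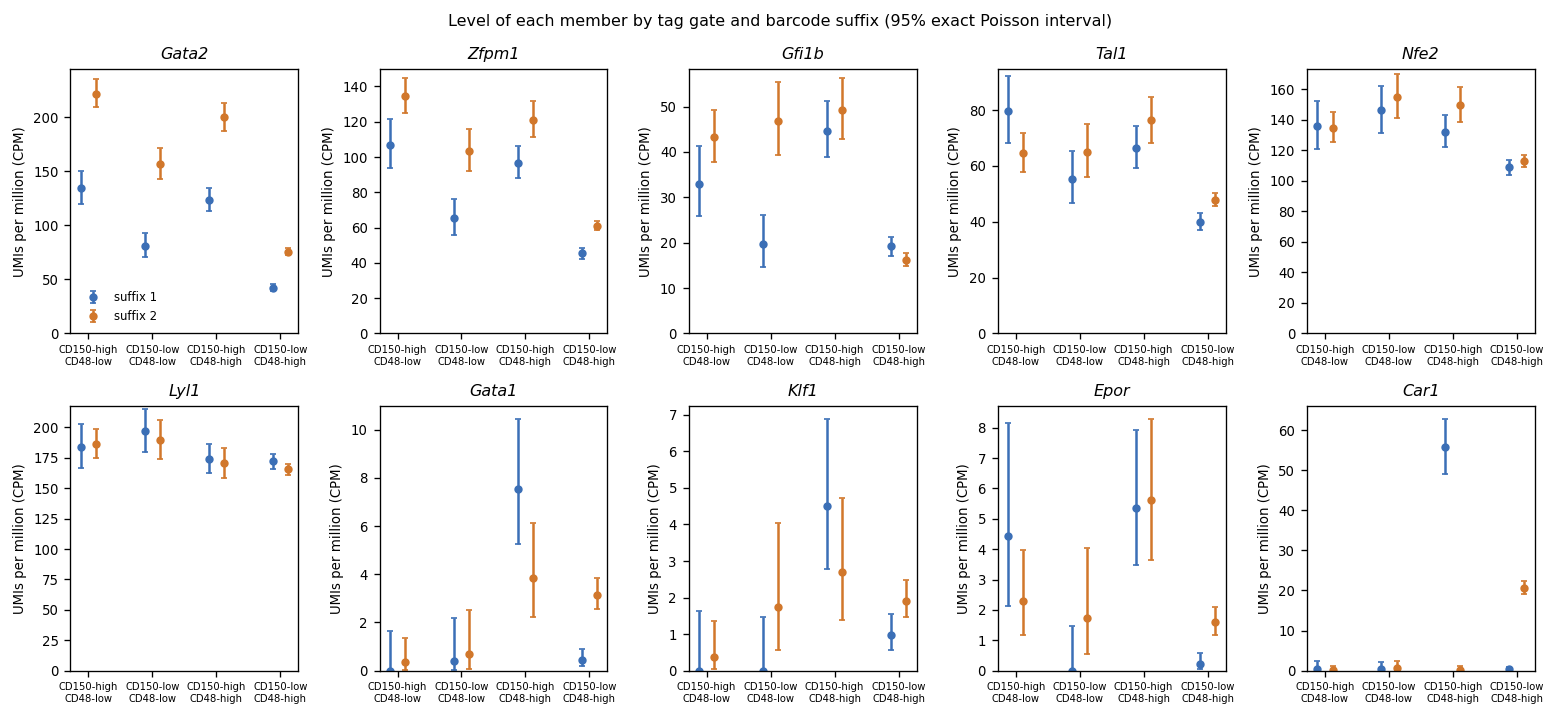
Level of each member in CPM (vertical axes, each from 0) in the 4 tag gates, with suffix 1 in blue and suffix 2 in orange and bars for 95% exact Poisson intervals. Gata2 and Zfpm1 are lowest in CD150-low CD48-high cells of both libraries, Lyl1 lies between 165 and 197 CPM throughout, and Car1 is high in a different gate of each library.

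The remaining members were rare in LSK cells. Gata1 (chrX:7959260-7978071, minus strand) had 162 UMIs in 86 of 4068 kept cells (2.11%), and 50 of these cells held a single UMI. By gate, its level was 0.266 CPM in CD150-high CD48-low cells (0.0322 to 0.961), 0.555 in CD150-low CD48-low, 5.71 in CD150-high CD48-high (4.27 to 7.49) and 2.17 in CD150-low CD48-high cells. In suffix 1 the levels in this order of gates were 0, 0.396, 7.52 and 0.454 CPM, and in suffix 2 they were 0.380, 0.695, 3.82 and 3.15 CPM. Both CD48-low gates were thus at or near 0 in both libraries, and the libraries differed in how much Gata1 CD150-low CD48-high cells held. The CD150-high CD48-high level was 21.5 times the CD150-high CD48-low level (5.66 to 182), on 52 and 2 UMIs. In suffix 1, where CD150-high CD48-low cells had no UMI, it was 5.65 times the level that 3 counts would give in that gate (1.33 CPM). This value leaves out the counting error of the CD150-high CD48-high cells.

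Counted as cells, 2 of 555 CD150-high CD48-low cells held a Gata1 UMI (0.360%), 2 of 454 CD150-low CD48-low cells (0.441%), 29 of 450 CD150-high CD48-high cells (6.44%) and 53 of 2527 CD150-low CD48-high cells (2.10%). After thinning to 9000 UMIs the shares in this order were 0.385%, 0% (0 to 0.987), 2.93% (1.57 to 4.95) and 0.986% (0.633 to 1.46), with CD150-high CD48-high again highest. In suffix 1 the Gata1-positive cells of the last gate were 3 of 912 and in suffix 2 they were 50 of 1615. None of the 172 suffix 1 cells in the CD150-high CD48-low gate held a UMI, and by the floor of 3 counts the share of cells with a UMI there could reach 1.74% (2.12% by the Clopper-Pearson bound). The tags of Gata1-positive cells lay high within each library for both antibodies. For CD150 their median was at the percentile 92.4 of suffix 1 (325 tags against 7 in Gata1-negative cells) and 67.5 of suffix 2 (168 against 16 tags), and 20 of 21 and 56 of 65 cells lay above the median tag value of their library. For CD48 their median percentiles were 71.2 and 62.8. None of the 86 cells was called a doublet.

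The suffix 2 median lay under the CD150 threshold at the percentile 75, and the gate of many Gata1-positive cells depended on where that threshold was set. With both tags split at the median of the suffix, CD150-low CD48-high cells held 9 Gata1-positive cells of 1381 (0.652%), CD150-high CD48-low cells 26 of 1440 (1.81%) and CD150-high CD48-high cells 50 of 607 (8.24%). The Gata1 ratio of CD150-high CD48-low to CD150-low CD48-high cells then turned from 0.123 (0.0147 to 0.455) to 5.30 (2.59 to 11.9), and it was 2.88 among cells with over 2500 genes and under 5% mitochondrial UMIs. The CD150-high CD48-high gate had the highest share in both libraries at either threshold, although in suffix 2 its 4.98% (2.60 to 8.54) overlapped the interval of CD150-low CD48-high cells (2.31 to 4.06). Gata1-positive cells were also more frequent where Gata2 was high, at 0.558% of cells with no Gata2 UMI (8 of 1433), 1.57% with 1 UMI, 2.41% with 2 to 3 and 6.16% with 4 or more (38 of 617). Median depths of these groups were 15245, 14205.5, 14468.5 and 15912 UMIs per cell. With both genes thinned, an alternative chosen after seeing the data, the shares were 0.422% (0.182 to 0.829), 1.20% (0.619 to 2.08), 2.04% (1.15 to 3.35) and 2.11% (0.577 to 5.30). The interval at 2 to 3 Gata2 UMIs (15 of 734 cells) lay above that at 0, and the last, on 4 of 190 cells, overlapped it. These Gata2 groups pool the libraries, and suffix 2 was higher in both genes. Over kept cells, suffix 2 had 111 CPM of Gata2 against 67.6 in suffix 1, and 2.56% Gata1-positive cells against 1.38%. The part of the library in this trend was not tested.

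**Figure D2:**
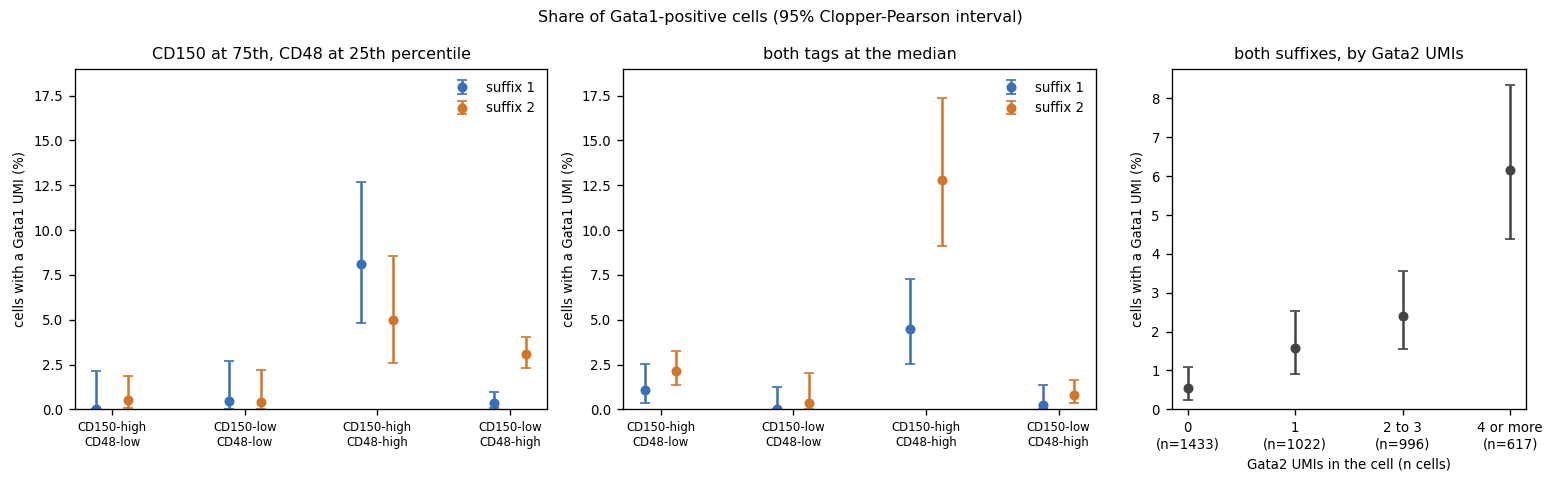
Share of cells with a Gata1 UMI (percent, not thinned, vertical axes) by tag gate and suffix at the percentiles used (left) and with both tags split at the median (middle), and by Gata2 UMIs over both suffixes (right), with 95% Clopper-Pearson intervals. CD150-high CD48-high cells have the highest share in both libraries at both settings, and the share is 0.558% at no Gata2 UMI and 6.16% at 4 or more.

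Klf1 (chr8:84901928-84905291, plus strand), the red cell factor, had 117 UMIs in 77 cells and a gate pattern like that of Gata1. It stood at 0.266 CPM in CD150-high CD48-low, 0.925 in CD150-low CD48-low, 3.63 in CD150-high CD48-high and 1.57 in CD150-low CD48-high cells. Its CD150-high CD48-high level was 13.6 times that of CD150-high CD48-low cells (3.49 to 117), and its ratio of CD150-high CD48-low to CD150-low CD48-high cells was 0.170 (0.0202 to 0.634). That ratio was 1.86 (0.968 to 3.64) with both tags at the median, so its direction depended on the gate threshold as well. In suffix 1, CD150-high CD48-low cells held no UMI of Gata1 or Klf1, against 8 and 17 in CD150-low CD48-high cells, and the difference was not detectable at this depth, with upper bounds of the ratio at 4.59 and 1.90.

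Epor (chr9:21958897-21963506, minus strand), the receptor gene, differed from Gata1 and Klf1 in that CD150-high CD48-low cells were not at the bottom. It had 132 UMIs in 106 cells, and stood at 5.49 CPM in CD150-high CD48-high (4.08 to 7.24), 2.93 in CD150-high CD48-low (1.83 to 4.43), 1.09 in CD150-low CD48-high and 0.925 in CD150-low CD48-low cells. The ratio of the CD150-high gates was 1.88 (1.12 to 3.26), with 1.21 in suffix 1 (0.561 to 2.82), and turned to 0.948 (0.642 to 1.39) with both tags at the median. The CD150-high CD48-high level was 5.03 times that of CD150-low CD48-high cells, at 23.7 in suffix 1 (8.18 to 93.7) and 3.54 in suffix 2 (2.09 to 5.84). The CD150-high CD48-low level was 19.6 times that of CD150-low CD48-high cells in suffix 1, on 10 and 4 UMIs, and 1.43 times (0.694 to 2.74) in suffix 2.

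Car1 (chr3:14766216-14808368, minus strand, overlapping the pseudogene Gm16399), the erythroid progenitor enzyme, had 910 UMIs in 27 cells (0.664% of kept cells, below the 1% required for a gene to enter the counts over all genes). Its 28.6 CPM in CD150-high CD48-high cells came from suffix 1, at 55.7 CPM against 0.225 in suffix 2. Its 13.3 CPM in CD150-low CD48-high cells came from suffix 2, at 20.7 CPM against 0.454 in suffix 1. Both values rested on 5 cells with 10 or more Car1 UMIs, which held 885 of the 910 UMIs (97.3%). Of the other 22 cells, 21 held a single Car1 UMI.

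The members were then set beside all genes. A gene was counted as past the fold at 2-fold or more in each library, among 12786 genes with a UMI in at least 1% of kept cells, which included 9 members. Between CD150-high CD48-low and CD150-low CD48-high cells, 2 of 9 members were higher (Gata2 and Zfpm1) against 7.2% of all genes, and 2 were counted as lower (Gata1 and Klf1) against 5.86%. Those 2 entered the count in suffix 1 through 0 UMIs in the stem cell gate, where a 2-fold difference was not detectable, and both turn with the threshold. Between CD150-high CD48-high and CD150-high CD48-low cells, 2 members were higher (Gata1 and Klf1) against 3.54% of genes and none lower against 0.751%. Between CD150-high CD48-high and CD150-low CD48-high cells, Gata2, Gfi1b and Epor were higher against 4.24% of genes and no member was lower against 1.82%. Zfpm1 missed that count at 1.98 in suffix 2, beside 2.13 in suffix 1. With the 36 doublets left out, the last comparison had 5 members past the fold. The share of all genes in that setting is not given here, so the 5 cannot be set against it.

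The question of which members are already present in stem cells was read from CD150-high CD48-low cells with no Gata1 UMI. A cell was counted as positive at 1 UMI after thinning, and the share was set against that in cells with 2 or more Dntt UMIs, a lymphoid-primed population that serves as the comparison. Such a share can hold stray RNA as well as expression, and Dntt cells carried Lyl1 at 161 CPM and Nfe2 at 81.7 CPM, so the rule reads an excess over lymphoid-primed cells. A member counted as above them where the lower bound of the first share exceeded the upper bound of the second. This held for 6 of 10 members over both libraries. Among genes with a UMI in at least 1% of kept cells it held for 6 of 8 members (Gata1 left out) and for 17.7% of 12784 genes. Gata2 was detected in 76.6% of the stem cell gate (72.7 to 80.2) against 19.4% of Dntt cells, Zfpm1 in 64.2% against 26.6%, Nfe2 in 72.1% against 54.8%, Tal1 in 44.5% against 25.3% and Gfi1b in 26.1% against 10.9%. Epor was rare, at 3.09% (1.78 to 4.98) against 0.363% (0.0750 to 1.06), on 16 of 517 cells. Before thinning these shares were 85.2% for Gata2, 74.7% for Zfpm1, 82.3% for Nfe2, 58.6% for Tal1, 31.5% for Gfi1b and 3.80% for Epor in the stem cell gate, at a median depth of 13334 UMIs against 21223 in the Dntt cells.

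Lyl1 was detected in 78.3% of the stem cell gate (74.5 to 81.8) and in 74.8% of Dntt cells (71.7 to 77.7). Over both libraries it did not pass the rule, but in suffix 1 alone it did by a narrow margin, at 84.0% (77.3 to 89.4) against 73.1% (68.6 to 77.2). Klf1 was found in 2 of 517 stem cell gate cells (0.387%, 0.0469 to 1.39) against 0.121% of Dntt cells (0.00307 to 0.673). Car1 stood at 0.193% (0.00490 to 1.07) against 0.121%, and for both genes the intervals overlapped, so neither was above Dntt cells in the stem cell gate. Gata1 is 0 there by construction. In the whole gate it was found in 0.385% of thinned cells. Within the libraries, Gata2, Zfpm1 and Tal1 passed the rule in both. Gfi1b and Nfe2 missed it in suffix 1, with lower bounds of 16.2% and 62.69% against upper bounds of 17.0% and 62.71% in Dntt cells. Epor missed it in suffix 2, at 2.49% (1.15 to 4.68) against 0.506% (0.0614 to 1.82). Each suffix thus had 5 members past the rule, and among cells with over 2500 genes and under 5% mitochondrial UMIs 3 did. The share of all genes past the rule was computed only over both libraries at the main filter, so these counts cannot be set against it.

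**Figure D3:**
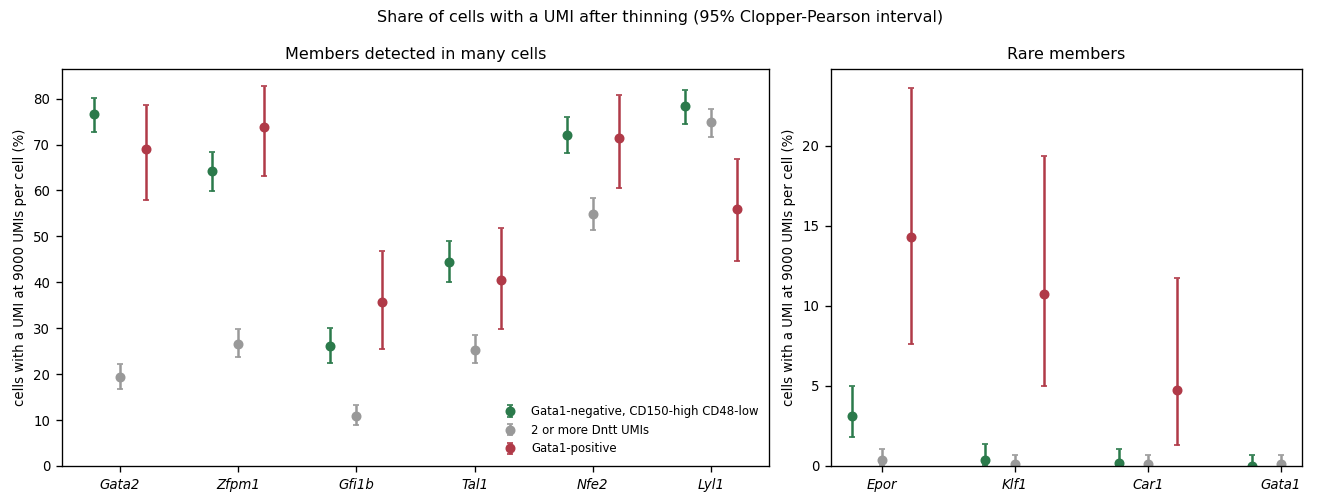
Share of cells with a UMI at a common depth of 9000 UMIs (percent, vertical axes) in Gata1-negative CD150-high CD48-low cells (green), cells with 2 or more Dntt UMIs (grey) and Gata1-positive cells (red), with 95% Clopper-Pearson intervals. Gata2, Zfpm1, Gfi1b, Tal1, Nfe2 and Epor are higher in the green than in the grey cells, Lyl1 is at 78.3% and 74.8%, and Klf1 and Car1 are near 0 outside the red cells.

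Gata1-positive cells, the 86 cells with at least 1 Gata1 UMI, were compared with the 3982 without. They were deeper, with a median of 22965 against 14762.5 UMIs per cell, and a cell without a UMI may still express the gene. Klf1 stood at 26.9 CPM against 0.866, a ratio of 31.1 (21.3 to 45.4), with 45.7 in suffix 1 and 25.7 in suffix 2. Epor stood at 18.0 against 1.36 CPM, a ratio of 13.2 (8.83 to 19.5), with 20.3 and 10.8. Gfi1b had a ratio of 2.54 (2.10 to 3.04), with 3.36 and 2.22, and Zfpm1 of 2.38 (2.12 to 2.65), with 2.81 and 2.17. These were 4 of the 8 members tested, against 1.52% of 12785 genes past the fold upward, and no member was past it downward against 7.33%. Car1, outside the genes counted, stood at 420 CPM against 0.303, but 5 cells held 885 of its 889 UMIs in Gata1-positive cells. Without these Car1-rich cells, a setting chosen after seeing the data, the ratio was 6.77 for Car1 (1.69 to 20.1), 12.4 for Klf1 (7.19 to 20.8) and 8.32 for Epor (4.98 to 13.3). Only 6 Gata1-positive cells held Car1, and 5 of them were left out here. The Car1 ratio then rested on 4 UMIs of a single cell of suffix 1, with none in suffix 2.

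Gata2 was 1.67 times higher in Gata1-positive cells (1.49 to 1.87), at 2.04 in suffix 1 and 1.48 in suffix 2. Tal1 stood at 1.27, with 1.36 and 1.22 in the suffixes, and Nfe2 at 0.993 (0.873 to 1.13). Lyl1 was lower, at 0.678 (0.596 to 0.769), with 0.714 and 0.667 in the suffixes. Spi1, which encodes the myeloid factor PU.1 and is no member, stood at 0.576 (0.492 to 0.671). When the Gata1 call and the levels were both taken after thinning to 9000 UMIs, 39 cells remained positive, Klf1 stood at 13.5 (4.13 to 34.5), Epor at 7.70 (2.42 to 18.9) and Zfpm1 at 2.18, while Gfi1b fell short of the fold at 1.71 (0.976 to 2.80) and Tal1 stood at 0.977.

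**Figure D4:**
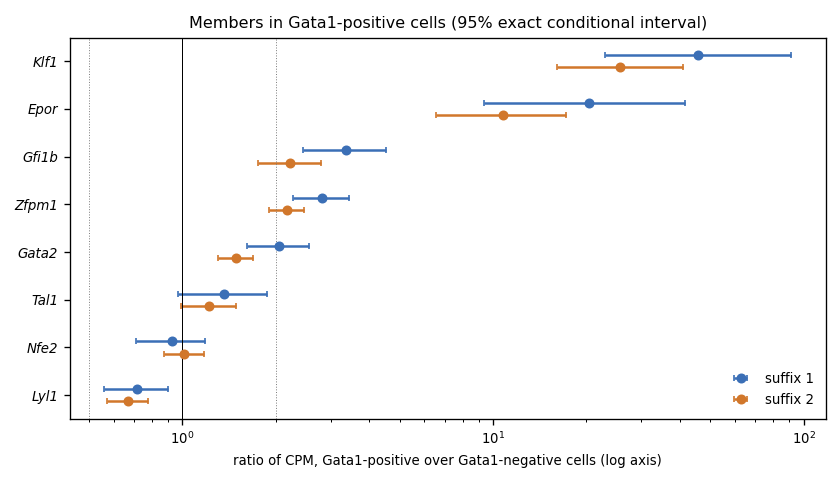
Ratio of CPM in Gata1-positive over Gata1-negative cells (log axis) for 8 members, with suffix 1 in blue and suffix 2 in orange, 95% exact conditional intervals, a solid line at 1 and dotted lines at 2 and 0.5. Klf1 and Epor lie above 10 in both libraries, Gfi1b and Zfpm1 above 2, and Lyl1 below 1.

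The Gata1-positive cells carried 2.96% of all kept UMIs, and they held 48.7% of Klf1 UMIs, 28.8% of Epor UMIs and 97.7% of Car1 UMIs. Of the 77 cells with Klf1, 57 had no Gata1 UMI, and 3 of these 57 held 2 UMIs or more. Of the 106 cells with Epor, 82 had no Gata1 UMI, and 10 of these held 2 UMIs or more. The share of Gata1-negative cells with Klf1 was 1.43% unthinned against 1.67% in the deeper Dntt cells, and 0.695% (0.454 to 1.02) against 0.121% (0.00307 to 0.673) after thinning, with overlapping intervals. Epor was held by 2.06% of Gata1-negative cells against 0.596% of Dntt cells. Of the 21 Gata1-negative cells with Car1, none held more than 1 UMI, and their thinned share of 0.321% (0.166 to 0.560) overlapped that of Dntt cells. Over all Gata1-negative cells the thinned share of Epor was 1.39% (1.04 to 1.82), which barely met the interval of Dntt cells (0.0750 to 1.06). Read by gate after seeing the data, Epor in Gata1-negative CD150-high CD48-high cells stood at 4.08 CPM (2.83 to 5.70) against 0.258 in Dntt cells (0.0839 to 0.603). Its thinned share there was 4.10% (2.40 to 6.48), above the Dntt interval, with 3.70% in suffix 1 (1.502 to 7.48) and 4.42% in suffix 2 (2.14 to 7.99). The thinned share of Klf1 in the same cells was 1.45% (0.532 to 3.12) and that of Car1 0.241% (0.00610 to 1.34), both overlapping Dntt cells. Klf1 and Car1 were therefore not shown outside Gata1-positive cells beyond the level of Dntt cells. Epor was, in the Gata1-negative cells of the stem cell gate and of this gate chosen after seeing the data, but not over all Gata1-negative cells. Such cells may still express Gata1, since 50 of the 86 positive cells held a single UMI.

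With both libraries together, Klf1 and Epor were higher in Gata1-positive cells of each CD48-high gate. In CD150-high CD48-high cells, 29 Gata1-positive cells set against 421 negative cells gave ratios of 14.7 for Klf1 (7.01 to 31.8), 5.11 for Epor (2.64 to 9.52), 2.09 for Gfi1b and 1.89 for Zfpm1, and 0.918 for Gata2 (0.752 to 1.11). In this gate Klf1 stood at 27.8 in suffix 1 (9.72 to 96.9) and 4.85 in suffix 2 (0.844 to 19.4), and Epor at 8.01 (3.34 to 19.04) and 2.77 (0.691 to 8.21), so in suffix 2 both intervals held 1. In CD150-low CD48-high cells, 53 against 2474 cells gave 35.2 for Klf1 (21.8 to 56.7), 26.3 for Epor (14.5 to 47.0), 2.50 for Gfi1b, 2.84 for Zfpm1 and 2.64 for Gata2 (2.28 to 3.04). Suffix 1 had 3 Gata1-positive cells there, with 3 Klf1 UMIs and none of Epor, and suffix 2 gave 34.0 for Klf1 (19.7 to 59.5) and 20.4 for Epor (11.1 to 37.2). The Car1-rich cells held 11 of 19 Klf1 and 7 of 16 Epor UMIs of the Gata1-positive cells in the former gate, and 25 of 37 and 9 of 22 in the latter. Without them the ratios were 6.72 for Klf1 (2.44 to 17.2) and 3.11 for Epor (1.31 to 6.63) in the former gate and 12.5 (5.96 to 24.4) and 17.0 (8.18 to 33.5) in the latter, with overlapping intervals between the gates for Klf1. The Gata2 level of the Gata1-positive cells was 149 CPM in the former gate and 160 in the latter, and it was the Gata1-negative cells that differed, at 162 and 60.8 CPM. Lyl1 was lower in the Gata1-positive cells of both gates, at 0.756 (0.612 to 0.924) and 0.640 (0.537 to 0.758).

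Levels were also read over cells with 0, 1, and 2 or more Gata1 UMIs. From 0 over 1 to 2 or more Gata1 UMIs (3982, 50 and 36 cells), Klf1 stood at 0.866, 9.81 and 50.4 CPM, Epor at 1.36, 11.4 and 26.9, Zfpm1 at 69.4, 128 and 216, Gfi1b at 23.6, 50.7 and 72.8, Gata2 at 92.5, 122 and 199, and Tal1 at 51.8, 57.2 and 77.3. Of these, Klf1, Zfpm1 and Gata2 had separate intervals at each step. Between 1 and 2 or more Gata1 UMIs, the intervals overlapped for Epor (6.26 to 19.2 and 17.2 to 40.0), Gfi1b (38.9 to 65.0 and 56.2 to 92.8) and Tal1 (44.6 to 72.3 and 60.1 to 97.8), and Tal1 also overlapped at the first step. The 5 cells with 10 or more Car1 UMIs weighed on Klf1 and Epor here. Without them, a setting chosen after seeing the data, Klf1 stood at 5.91 (2.38 to 12.2) and 18.3 CPM (10.0 to 30.8) and Epor at 9.28 (4.63 to 16.6) and 14.4 CPM (7.20 to 25.8) at 1 and at 2 or more Gata1 UMIs, with overlapping intervals. Lyl1 ran the other way, at 174, 130 (111 to 152) and 102 CPM (82.1 to 125), with overlapping intervals in the last 2 groups. Nfe2 showed no order, at 121, 108 and 137 CPM with overlapping intervals in the last 2 groups. Dntt was 230, 57.2 and 0 CPM over the same groups, and the 57.2 rested on 70 UMIs in 6 of 50 cells.

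**Figure D5:**
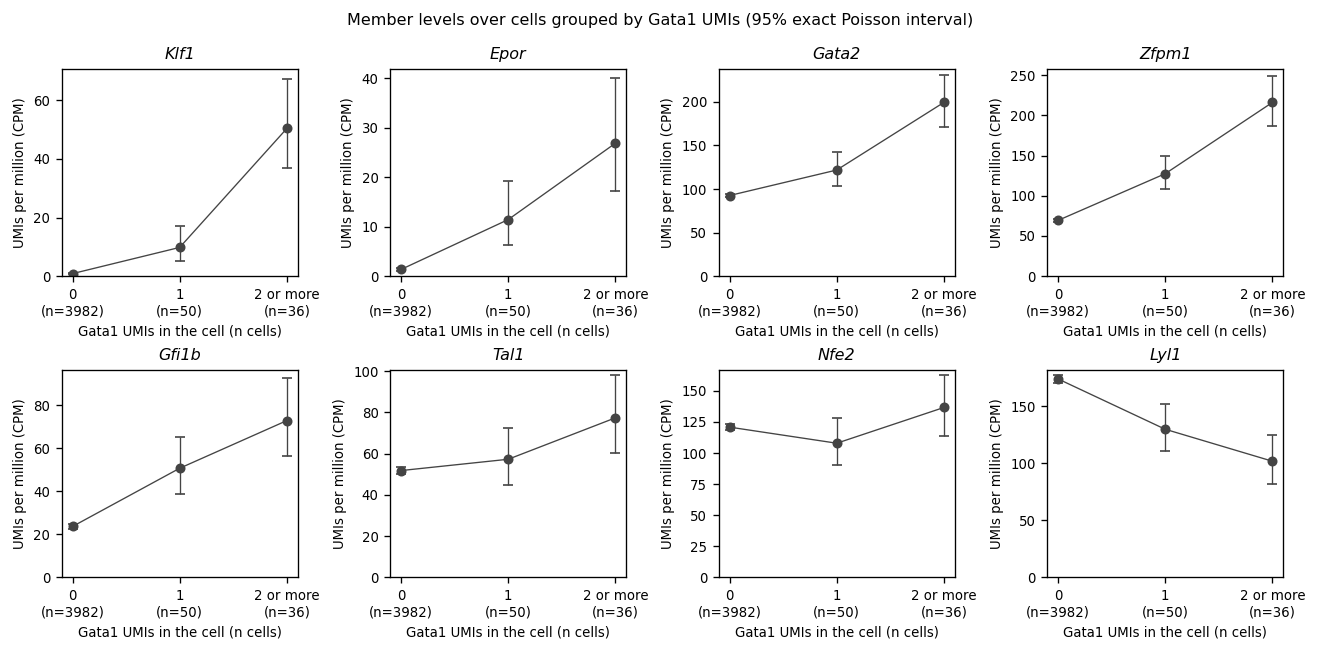
Level in CPM (vertical axes from 0) of 8 members over cells with 0, 1, and 2 or more Gata1 UMIs (3982, 50 and 36 cells), both suffixes together, with 95% exact Poisson intervals. The points of Klf1, Epor, Gata2, Zfpm1, Gfi1b and Tal1 are higher at each step and those of Lyl1 lower, with overlapping intervals at the last step for Epor, Gfi1b, Tal1 and Lyl1 and at the first step for Tal1. Without the 5 Car1-rich cells Klf1 at 2 or more Gata1 UMIs is 18.3 CPM and Epor 14.4 CPM.

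The Gata1-positive cells were not uniform. In unthinned counts, at median depths of 22965 UMIs against 14762.5 in Gata1-negative cells, Klf1 was found in 20 of the 86 (23.3%), Epor in 24 (27.9%), Car1 in 6 and both Klf1 and Epor in 8. The megakaryocyte integrin gene Itga2b was found in 68 (79.1% against 22.8% of Gata1-negative cells), the platelet factor gene Pf4 in 37 and the mast cell protease gene Cpa3 in 27 (31.4% against 6.88%). Of the 27 cells with Cpa3, 26 also held Itga2b, and of the 20 with Klf1, 10 also held Pf4. The proliferation gene Mki67 was found in 52 (60.5% against 22.0%) and the stem cell gene Procr in 19 (22.1% against 59.6%). Thinned to 9000 UMIs, a comparison added after seeing the data, the shares were 59.5% against 14.8% for Itga2b, 27.4% against 4.25% for Cpa3, 50.0% against 19.03% for Mki67 and 14.3% against 45.8% for Procr, and the intervals of these pairs did not overlap.

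A split of the 86 cells by Klf1 or Epor, chosen after their values had been seen, gave 36 cells with a UMI of either and 50 without. The 36 cells had lower Lyl1 (85.8 against 146 CPM, intervals 68.5 to 106 and 125 to 170), higher Gfi1b (79.7 against 43.1), lower Spi1 (59.3 against 98.5) and almost no Procr (2.04 against 30.8). Gata2 did not separate them, at 165 (140 to 192) and 146 (125 to 170) CPM. Itga2b stood at 174 against 81.8 CPM and Pf4 at 1045 (982 to 1111) against 56.3 (43.3 to 71.9). Of the 57 Klf1 UMIs in the 36 cells, 36 lay in the 5 Car1-rich cells, which held no Pf4, and 4 in cells with 10 or more Pf4 UMIs, which held 985 of the 1023 Pf4 UMIs. Of the 78 Gfi1b UMIs in the 36 cells, 18 lay in the Car1-rich cells, at 107 CPM. The Gfi1b level without the cells rich in Car1 or Pf4 is not given here. The median depth was 25369 UMIs in the 36 cells and 21144 in the 50, and the part of depth in this split was not tested.

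Cells rich in Car1 or in Pf4 were also singled out after their values had been seen. All 5 Car1-rich cells and 7 of 10 Pf4-rich cells were among the 36 with Klf1 or Epor. The 5 cells with 10 or more Car1 UMIs held 428, 186, 145, 113 and 13, and each held Gata1, Klf1 and Epor, with 19, 5, 7, 4 and 1 Klf1 UMIs. They were the only kept cells with all 4 rare members. They also held the haem pathway gene Blvrb and Car2, but 98.1% of Gata1-negative cells held Car2 as well, at 615 CPM. Tfrc, Hemgn, Ermap and Rhd had no UMI in some of the Car1-rich cells. Pf4, Procr, Cpa3 and Hba-a1 had no UMI in any of them. Of these cells, 3 carried suffix 2 and lay in the CD150-low CD48-high gate, and 2 carried suffix 1 and lay in the CD150-high CD48-high gate. Their summed levels were 214 CPM for Klf1 (150 to 297), 95.3 for Epor (54.5 to 155) and 65.5 for Gata2 (32.7 to 117), and they held 30.8% of all Klf1 UMIs.

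The 10 Gata1-positive cells with 10 or more Pf4 UMIs held 14 to 467 each and 94.6% of the Pf4 UMIs of Gata1-positive cells. None was rich in Car1, and Car1 and Procr had no UMI in any. Their Klf1 level was 14.0 CPM (3.81 to 35.8) on 4 UMIs in 3 cells, against 214 in the Car1-rich cells. Gata2 stood at 189 CPM (142 to 246) against 65.5 (32.7 to 117), Zfpm1 at 241 (188 to 305) against 131 (82.1 to 198), Gfi1b at 101 (67.9 to 146) against 107 (63.5 to 169), and Epor at 28.0 (12.1 to 55.1) against 95.3. The intervals of Klf1 and Gata2 did not overlap between these groups of cells, and those of Gfi1b and Zfpm1 did. Of the 10 cells, 9 carried suffix 2.

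The other genes of the pathway were described from fixed lists, against a median ratio of 0.974 over all genes in Gata1-positive over Gata1-negative cells. Of 22 partners of the GATA and TAL1 complex, none was past the fold and the median was 1.06. The adaptor gene Lmo2 stood at 619 against 899 CPM (ratio 0.688, 0.651 to 0.727), Tcf4 at 0.628 and Fli1, a megakaryocyte ETS factor, at 1.28. Of 14 genes of erythropoietin receptor signalling, none was past the fold upward and Socs3, a feedback inhibitor, was past it downward at 0.491 (0.314 to 0.733), which is 1 of 14 beside 7.33% of all genes, with a median of 0.814. The survival gene Bcl2l1 stood at 1.76 (1.26 to 2.40), Stat5a at 1.38 and the kinase gene Jak2 at 1.17 (0.855 to 1.55).

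Of 30 erythroid maturation genes, 17 had enough cells to be counted, 8 of them were past the fold upward, against 1.52% of all genes, and 1 of 17 downward, against 7.33%, and the median was 2.08. The lipid transporter gene Mfsd2b stood at 37.2 (26.8 to 51.7) and the water channel gene Aqp1 at 17.8 (13.4 to 23.6). Ces2g, a carboxylesterase gene, stood at 7.96 (6.17 to 10.2). The globin gene Hbb-bt was lower, at 8.03 against 40.5 CPM (ratio 0.198, 0.115 to 0.318), and Hbb-bs stood at 4.25 against 5.01 CPM. Of 24 megakaryocyte and platelet genes, 20 were counted, 8 were past the fold upward (1.52% of all genes) and 1 of 20 downward (7.33%), and the median was 2.08. Pf4 stood at 22.5 in all, but at 3.11 in suffix 1 and 25.1 in suffix 2, while the platelet receptor gene Gp5 stood at 8.11 (6.29 to 10.4). Treml1, another platelet receptor gene, was at 22.7 against 1.89 CPM, with ratios of 12.7 and 11.1 in the suffixes. Thbs1 was past the fold downward at 0.152 (0.0413 to 0.391).

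The counts below stand beside 1.52% of all genes past the fold upward and 7.33% downward. Of 14 mast cell and basophil genes, 5 were counted, and Cpa3 (7.24, 5.96 to 8.75) and the histamine enzyme gene Hdc (6.60, 4.07 to 10.3) were past the fold upward. The median was 1.20, with Mitf at 1.20, Lmo4 at 1.09 and Mcpt8 at 0.613 (3.98 in suffix 1 and 0.341 in suffix 2). Of 14 myeloid genes, none was past it upward and 8 downward, with a median of 0.435, and the granule factor Cebpe stood at 11.1 over both libraries but at 0 in suffix 1. Of 14 lymphoid progenitor genes, 11 were counted and 7 were past the fold downward, with a median of 0.301. Of 10 stem cell genes, none was past it upward and Procr, Hlf, Mllt3 and Ly6a were past it downward. Of 12 cell cycle genes, Mki67 and Birc5 were past it upward, with a median of 1.83. The part of the cell cycle in the members' ratios was not tested.

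Genes most like Gata1 were taken by Pearson r of log-scaled levels across all 4068 kept cells, as a description that shares depth and library. They were Mfsd2b (r = 0.391), Fgf3 (0.285), Klf1 (0.275), Itga2b (0.232) and Aqp1 (0.209), which includes 1 member, and the lowest were Prtn3 (-0.158), Myl10 (-0.153), Ifitm1 (-0.142), Emb (-0.139) and mt-Co1 (-0.138). For Gata2 they were other genes, Apoe (0.506), Sult1a1 (0.436), Pdzk1ip1 (0.429), Trim47 (0.426) and Gng11 (0.415). Sult1a1 stood at 660 CPM in CD150-high CD48-low and 28.6 in CD150-low CD48-high cells and at 50.1 in Gata1-positive cells, whereas Apoe stood at 986, 138 and 868 CPM. Between Gata1 and Gata2 themselves r was 0.0900, and between Gata2 and Zfpm1 it was 0.252.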

How the data were processed

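CITE-Seq was performed on LSK cells of 2 libraries, 1 per age. Per the study's methods, the UMI counts were made by the authors with Cell Ranger 3.1.0 and its aggregation step, which equalizes libraries and can lower the counts of the deeper library. The submitters' processing notes name mm10 and GRCm38 as the genome. Antibody tags were counted and deposited by the authors on a log10 scale, and were turned back into whole tag counts. No per-sample column was left out (0).

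Here, cells were filtered and gated per barcode suffix, counts were summed per group, and shares were computed unthinned or, where so named, after thinning to 9000 UMIs (seed 20). Poisson, conditional binomial and Clopper-Pearson intervals at 95% cover counting error only, since UMIs of 1 library are not replicates. No test was run, because neither age has a replicate and suffixes are not tied to ages. Genes needed a UMI in at least 1% of kept cells. Named list genes are the 3 highest and 3 lowest ratios of each list, and genes like Gata1 or Gata2 the 5 with the highest r. The members and lists were chosen with earlier results of these data known. The interval and ratio code was tested on simulated data. Genome positions are from GENCODE and promoters from RefSeq, both on GRCm38. Python 3.11.15, numpy 2.4.6, scipy 1.17.1, pandas 2.3.3, scanpy 1.11.5 (scrublet, expected rate 6%) and matplotlib 3.10.9 were used. Alternatives covered the cell filter, doublets, single suffixes, gate thresholds, thinning depth, fold, detection minimum and leaving out the cells with the most UMIs.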

Additional observations from a re-analysis of the deposited data

Results flagged for a closer look

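Car1 moved in opposite directions in the libraries between CD150-high CD48-high and CD150-low CD48-high cells. Its level in the former gate was 123 times that of the latter in suffix 1 (61.4 to 287) and 0.0109 times in suffix 2 (0.000275 to 0.0609). The difference between the libraries was not tested. The 5 cells with 10 or more Car1 UMIs lay in the CD150-high CD48-high gate for suffix 1 (2 cells) and in the CD150-low CD48-high gate for suffix 2 (3 cells), and without them the ratio over both libraries was 0.596.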

How the results depend on the processing

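For single members, 522 values were recomputed under 18 settings. Of these, 364 moved by less than their counting interval, 143 moved by more, and 15 changed direction. Of 96 counts, 66 stayed within 1.5 times the value first given. The counts first given were 4, 2, 3 and 5 members past the fold (in either direction, with Car1 in the last) in the 4 comparisons in the order of the report, 1669, 548, 775 and 1131 genes, and 6 members above Dntt cells in the stem cell gate. In what follows the comparisons are called by that order. A count of members there cannot be set against all genes unless a count of genes for the same comparison and setting is given.

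Cells with over 2500 genes and under 5% mitochondrial UMIs gave 2.88 for Gata1 and 4.62 for Klf1 in the first comparison and 1.23 for Zfpm1 in the second, with 7 members in the third, 870, 1508 and 2439 genes in the second, the third and the fourth, and 3 members above Dntt cells. Gates at the median of both tags gave 5.30 for Gata1, 1.86 for Klf1 and 3.07 for Car1 in the first comparison, 0.708 for Gfi1b and 0.948 for Epor in the second, 943 genes in the second and 6 members in the third. Percentiles over both suffixes gave 1.20 for Klf1 in the first comparison, 0.997 for Gfi1b in the second and 7 members in the third. The causes of these changes were not tested.

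Leaving out the doublets gave 5 members in the third comparison. Suffix 1 alone gave 7 members in the third, 1670 genes in the second and 3115 in the fourth, and suffix 2 alone gave 2979, 1055, 2294 and 2017 genes and a Car1 ratio of 0.0109 in the third. With a single suffix a gene needs the fold in that library only. Without the 5 cells with the most UMIs of a gene in each group, Car1 stood at 0 in the third comparison and 3 members were past the fold in the fourth. Thinning before the Gata1 call also left 3 members there, with Tal1 at 0.977. Without the Car1-rich cells, a setting chosen after seeing the data, Car1 stood at 0.831 in the second comparison and 0.596 in the third. A fold of 1.5 gave 2935, 1052, 1446 and 2265 genes, a minimum of 5% of cells gave 932, 317, 331 and 523, and all genes with a UMI gave 3274, 1105, 2150 and 4124.

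No paired analysis was possible because each age was a single library and no result came from a test across samples. Depth limits Gata1, Klf1, Epor and Car1, which had 162, 117, 132 and 910 UMIs in all. In the CD150-high CD48-low gate of suffix 1, 3 counts equal 1.33 CPM, so a level below that rests on fewer than 3 UMIs.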

Other observations

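The 6 widely detected members (Gata2, Zfpm1, Gfi1b, Tal1, Nfe2 and Lyl1) were also counted per cell at 9000 UMIs. A CD150-high CD48-low cell held 3.62 of them on average, a CD150-low CD48-low cell 3.26, a CD150-high CD48-high cell 3.58, a CD150-low CD48-high cell 2.66, a Gata1-positive cell 3.46 and a cell with 2 or more Dntt UMIs 2.12. The order of the 4 gates differed between the libraries only in its first places, with means of 3.46, 2.94, 3.36 and 2.48 in suffix 1 and 3.69, 3.52, 3.77 and 2.76 in suffix 2. All 6 were found in 18 of 519 CD150-high CD48-low cells (3.47%, 2.07 to 5.43), 22 of 444 CD150-high CD48-high cells (4.95%, 3.13 to 7.41), 16 of 2435 CD150-low CD48-high cells (0.657%) and none of 826 Dntt cells. In CD150-low CD48-low cells they were found in 9 of 372 (2.42%, 1.11 to 4.54), and in Gata1-positive cells in 4 of 84 (4.76%, 1.31 to 11.7). Of the rare members Gata1, Klf1, Epor and Car1, counted without thinning, 0 of 555 CD150-high CD48-low cells, 3 of 454 CD150-low CD48-low, 20 of 450 CD150-high CD48-high and 25 of 2527 CD150-low CD48-high cells held 2 or more. At 9000 UMIs these were 0 of 519, 0 of 372, 6 of 444 and 7 of 2435 cells. By the floor of 3 counts the first share could reach 0.578% and the second 0.806%. The Clopper-Pearson bound is wider, at 0.987% for 0 of 372 cells.

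Of 20 megakaryocyte and platelet genes, 9 were past the fold upward in CD150-high CD48-low over CD150-low CD48-high cells, among them the clotting protein gene Vwf and the integrin gene Itgb3, against 7.2% of all genes, with a median of 2.40 against 0.987. In CD150-high CD48-high over CD150-low CD48-high cells 12 of the 20 were past it, against 4.24% of all genes, with a median of 2.62, so the list was higher in both CD150-high gates. Between CD150-high CD48-high and CD150-high CD48-low cells only F2rl2 of that list was past it upward, and Mfsd2b alone of 17 erythroid genes, against 3.54% of all genes. Of 5 mast cell genes tested, Cpa3 and Hdc were past the fold there too, beside 11 of 12 cell cycle genes with a median of 6.67.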
